A study of Mus musculus with 6 samples.

Results

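The genes of glycolysis and of the response to hypoxia were followed in AML12 cells that over-expressed the transcription factor Zac1. The set is a list of 40 gene symbols, all of which were found in a table of 49585 counted genes. It comprises 16 glycolytic enzymes, 5 genes that carry glucose or lactate or set the pace of the pathway, 7 genes of oxygen sensing and 12 other targets of hypoxia-inducible factors. AML12 is an immortalised line of mouse hepatocytes. The 3 Zac1 libraries (replicates 4, 5 and 6) came from cells transfected with a construct that carries the Zac1 open reading frame. The 3 EGFP libraries (replicates 1, 2 and 3) came from cells given the same kind of construct with the open reading frame of EGFP, a fluorescent protein that serves as the control. RNA of both groups was taken 24 h after transfection, and polyadenylated RNA was sequenced. The labels state neither the promoter of the construct, nor the share of cells that took it up, nor whether each library had a culture of its own. The p-values therefore rest on the spread among these libraries, part or all of which may be technical.

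Glycolysis splits glucose into pyruvate, and lactate dehydrogenase turns pyruvate into lactate. Many of its enzymes have isozymes from separate genes, which differ in the tissues that use them. Hypoxia-inducible factors (HIFs) are pairs of an alpha subunit (HIF1A, or EPAS1, also called HIF2A) and the subunit ARNT. With oxygen present, prolyl hydroxylases of the EGLN family mark the alpha subunit and the VHL protein sends it for degradation, so the activity of a HIF is set mainly by protein stability and not by the level of its transcript. Without oxygen, the pair binds the core motifs ACGTG and GCGTG and raises glycolytic enzymes, glucose uptake, carbonic anhydrases, mitophagy receptors and its own regulators EGLN1 and EGLN3.

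Promoter sequences are shown for genes that were higher in Zac1 and for a pair of abundant glycolytic genes, so that the HIF core motif can be read in place. The 250 bases before each start in the RefSeq promoter table (GRCm38.p6) were searched for ACGTG and GCGTG on both strands, where matches that overlap, as in CACGTG, count once. Many windows reach into exons that GENCODE M21 annotates for the same gene, and some lie wholly within them. Entries matched 36 of the 40 members with 54 windows; those with none were Epas1, Bnip3l, Ndrg1 and Bhlhe40. Of the member windows, 41 (75.9%) held a match, against 38.6% of all 32851 windows; the median GC content of these windows was 60.2% for members and 52.4% for all, and the motif itself contains CG. A match was present in 20 of 27 windows of glycolytic enzymes and in 9 of 13 windows of the other HIF targets. Some windows of the same gene overlap and share a match, as for Eno1, Aldoa and Pfkm, so windows are not separate sites. In the lines that follow, which run 5′ to 3′ on the strand of the gene, capitals mark each match.
Egln3 (chr12:54203875-54204124, minus strand): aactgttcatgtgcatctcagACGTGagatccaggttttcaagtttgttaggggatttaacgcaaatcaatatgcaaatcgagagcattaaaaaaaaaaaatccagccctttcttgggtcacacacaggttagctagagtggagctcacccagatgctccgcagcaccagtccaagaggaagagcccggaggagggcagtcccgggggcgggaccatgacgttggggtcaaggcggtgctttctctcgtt
Mxi1, second of its 3 windows (chr19:53329163-53329412, plus strand): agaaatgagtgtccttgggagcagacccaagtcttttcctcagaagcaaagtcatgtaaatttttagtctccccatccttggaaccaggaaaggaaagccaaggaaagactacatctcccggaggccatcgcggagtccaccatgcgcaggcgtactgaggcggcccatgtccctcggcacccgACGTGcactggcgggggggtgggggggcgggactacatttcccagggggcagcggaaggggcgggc
Eno2 (chr6:124769674-124769923, minus strand): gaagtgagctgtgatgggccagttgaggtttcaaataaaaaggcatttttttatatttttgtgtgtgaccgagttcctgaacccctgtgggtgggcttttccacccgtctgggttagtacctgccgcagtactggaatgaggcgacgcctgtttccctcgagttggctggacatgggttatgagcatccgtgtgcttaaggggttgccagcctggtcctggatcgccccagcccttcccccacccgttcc
Pgk1 (chrX:106186850-106187099, plus strand): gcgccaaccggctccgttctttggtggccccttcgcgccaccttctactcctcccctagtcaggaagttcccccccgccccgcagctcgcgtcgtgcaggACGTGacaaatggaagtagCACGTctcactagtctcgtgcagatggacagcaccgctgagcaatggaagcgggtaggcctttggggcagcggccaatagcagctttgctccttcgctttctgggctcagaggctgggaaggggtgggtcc
Ldha, first of its 2 windows (chr7:46845554-46845803, plus strand): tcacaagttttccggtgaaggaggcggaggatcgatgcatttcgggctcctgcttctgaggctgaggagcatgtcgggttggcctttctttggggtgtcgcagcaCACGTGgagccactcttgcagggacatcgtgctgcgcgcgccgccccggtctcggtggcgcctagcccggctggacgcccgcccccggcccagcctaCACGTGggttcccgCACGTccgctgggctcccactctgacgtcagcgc
Car9, the match, which lies in the annotated first exon, with 10 bases on either side (chr4:43506998-43507022, plus strand): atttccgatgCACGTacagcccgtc
Egln3, Mxi1 and Car9 each had 1 match in the window shown, Pgk1 had 2 and the first Ldha window 3. The Eno2 window had no match. Of the Mxi1 windows not shown, the first had 0 matches and the third, wholly within annotated exons, had 1. The second Ldha window had 1 match.

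Library totals ran from 16104498 to 18302538 reads in Zac1 and from 14801240 to 15145092 reads in EGFP. Plagl1, the gene that encodes Zac1, had 106033, 135108 and 148382 reads in the Zac1 libraries and 39, 79 and 67 in the EGFP libraries; the counts do not separate the construct from the gene of the cells. Along the second principal component (16.2% of the variance), Zac1 replicate 4 and EGFP replicate 1 lay apart from the other 4 libraries. Hepatocyte markers were only partly present, as judged from CPM, which are counts scaled to library size with TMM factors. Alb had 34.7 ± 1.99 CPM in Zac1 and 34.7 ± 1.18 CPM in EGFP and Hnf4a 206 ± 4.01 CPM in Zac1 and 201 ± 9.92 CPM in EGFP (SD, n = 3), while Apoa2 and Cyp2e1 had 0 reads in every library. Among the 12 hepatocyte markers tested, 1 was higher and 1 lower in Zac1 at an edgeR adjusted p under 0.05, against 3.78% called over all genes. Their log2 fold changes ran from -0.67 to 0.48. Of 20 markers of other liver and blood cell types, 4 had 0 reads in every library and 4 passed the count minimum, none of them past the test; the bile duct markers Krt7, Krt19 and Sox9 made up most of their sum, which was 389 to 413 CPM in Zac1 and 366 to 405 CPM in EGFP. In bulk RNA, more cells that express a gene and more of its RNA per cell cannot be told apart.

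Zac1 was compared with EGFP to ask which members differ once Zac1 is over-expressed. The test was run where counts averaged 10 or more over the 6 libraries, which took in 39 of the 40 members; Slc16a3 stayed below it. Of these, 5 rose, namely Car9, Eno2, Epas1, Mxi1 and Egln3, and 0 members fell at an edgeR adjusted p under 0.05 over all 12130 tested genes. Car9 averaged 6.67 reads in EGFP, below the minimum, and was tested only because of its Zac1 libraries. Over all tested genes 3.78% passed the test, 3.12% as higher and 0.668% as lower. The other 34 members did not pass. Of the 39, 10 members had a log2 fold change below 0, as had 6121 of all 12130 tested genes. At an unadjusted edgeR p under 0.05, 8 members were higher, the 5 included, and 1 was lower (Bnip3). Over all 12130 tested genes these counts were 1141 higher and 780 lower. DESeq2 called 4 members higher, against 2.75% of all genes, and 0 lower, against 0.775%. The median log2 fold change was 0.05 over the 39 members and -0.002 over all tested genes. Values of the groups did not overlap for 11 of the 39 members, against 20.6% of all tested genes; 6 were higher in Zac1 (11.9% of all tested genes) and 5 lower (8.75%). Higher calls were more frequent among weakly expressed genes, at 7.29% of those with a mean under 10 CPM and 1.59% of the rest. Of the members, 3 of 8 below that level, Car9 among the 3, and 2 of 31 above it were called.

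**Figure D1:**
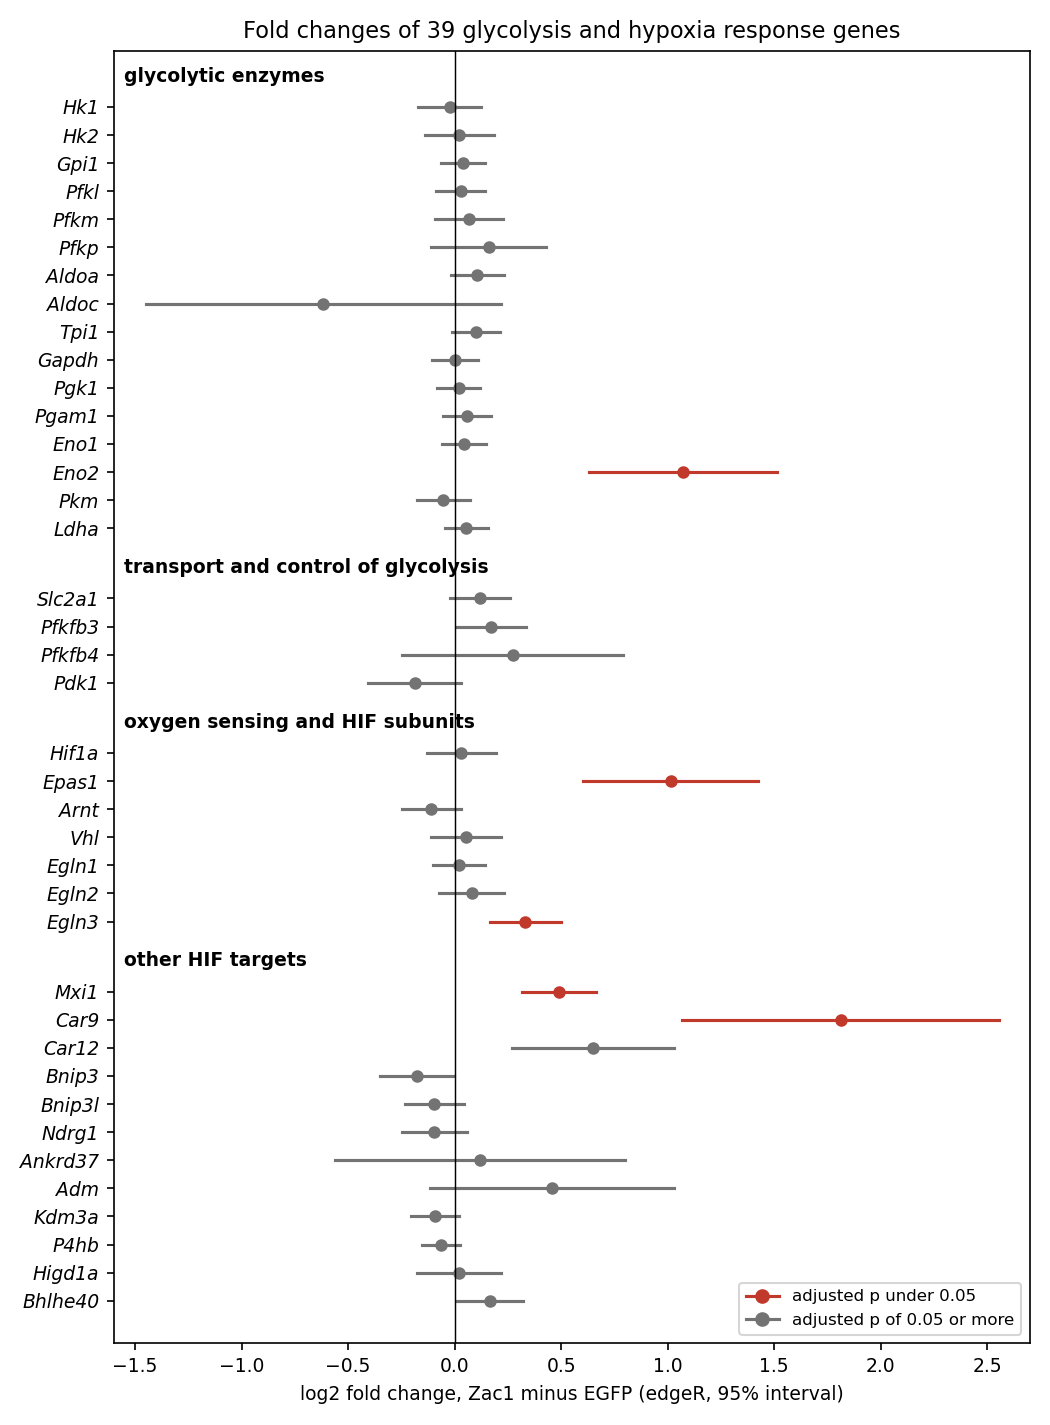
The log2 fold changes (Zac1 minus EGFP, x axis) of the 39 tested members with 95% intervals are ordered by role. Red marks the 5 members past the adjusted p of 0.05 (Eno2, Epas1, Egln3, Mxi1 and Car9), and grey marks the other 34, most of which lie near 0 with narrow intervals.

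Fold changes of the glycolytic enzymes were small, with Eno2 the 1 enzyme past the test. Of 16 enzymes tested, Eno2 rose and 0 fell, against 3.78% called over all genes. Log2 fold changes were above 0 for 13 enzymes and below 0 for 3, against 6009 and 6121 of all tested genes. The summed level of the 16 was 7399.9 ± 196 CPM in Zac1 and 7298 ± 259 CPM in EGFP (SD, n = 3), and the library values overlapped. Apart from Eno2 and Aldoc, both below 5 CPM in every library, the log2 fold changes of the enzymes ran from -0.05 (Pkm) to 0.16 (Pfkp), and no 95% interval among these 14 reached beyond 0.43 in either direction; this cut by level was made after the values were seen.

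The first steps commit glucose to the pathway. RPKM scales CPM by the joined length of all annotated exons of a gene, which can be longer than a single transcript. Ranks and shares between genes in RPKM therefore depend on the annotation. Hexokinase traps glucose in the cell as its phosphate. Hk1 had 7.32 ± 0.593 RPKM in Zac1 and 7.45 ± 0.238 RPKM in EGFP (SD, n = 3). Hk2 had 6.11 ± 0.159 RPKM in Zac1 and 6.01 ± 0.502 RPKM in EGFP. Log2 fold changes were -0.02 for Hk1 (95% interval -0.17 to 0.12) and 0.02 for Hk2 (-0.14 to 0.18). Gpi1, which turns glucose phosphate into fructose phosphate, was at 0.04 (-0.07 to 0.14). Phosphofructokinase, the main control point of glycolysis, has a liver, a muscle and a platelet form. The liver form Pfkl made up 62.1 ± 1.18% of the family's summed RPKM in Zac1 and 62.8 ± 1.09% in EGFP, with overlapping libraries. Log2 fold changes were 0.03 for Pfkl, 0.07 for Pfkm and 0.16 for Pfkp, with adjusted p of at least 0.582.

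Aldolase splits the sugar, and triose phosphate isomerase balances its products. Tpi1, the enzyme with the smallest p after Eno2, had 594, 624 and 664 CPM in Zac1 replicates 4, 5 and 6, against 576, 615 and 565 CPM in EGFP replicates 1, 2 and 3. Zac1 replicate 6 was the highest library, and the groups overlapped (log2 fold change 0.10, SE 0.05, edgeR adjusted p = 0.389). Aldoa, the ubiquitous aldolase, had a mean of 717 ± 54.1 CPM in Zac1 and 666 ± 31.6 CPM in EGFP (log2 fold change 0.11, adjusted p = 0.405). Aldoc, the brain form, was near the count minimum, with 6, 8 and 16 reads in the Zac1 libraries and 14, 13 and 13 reads in the EGFP libraries; scaled to library size, the Zac1 libraries were lower without overlap, though Zac1 replicate 6 (0.870 CPM) barely so against EGFP replicate 2 (0.873 CPM), and it did not pass (log2 fold change -0.62, SE 0.39, edgeR adjusted p = 0.479).

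The later part of the pathway recovers ATP and ends in lactate. Gapdh, the dehydrogenase often used as a reference gene, had 1141, 1277 and 1305 CPM in Zac1 replicates 4, 5 and 6, against 1237, 1242 and 1238 CPM in EGFP replicates 1, 2 and 3. Its log2 fold change was 0.002 (95% interval -0.11 to 0.11), with a wider spread among Zac1 than among EGFP libraries. Pgk1 (phosphoglycerate kinase) was at 0.02 (-0.08 to 0.12), Pgam1 (phosphoglycerate mutase) at 0.06 (-0.06 to 0.17) and Eno1 (alpha-enolase) at 0.04 (-0.06 to 0.15). Pkm, the pyruvate kinase of most tissues, had the highest RPKM of the 16, at 403 ± 8.92 in Zac1 and 418 ± 38.6 in EGFP. Its log2 fold change was -0.05 (-0.18 to 0.07). Ldha, which makes lactate, was at 0.06 (-0.05 to 0.16), and its first promoter window holds 3 matches to the HIF core motif. Shared sequence was searched on both strands. Genes at the same place were included, such as Gm49759, which overlaps 767 exonic bases of Pkm and had 0 reads. Some genes of this part of the pathway share sequence with others. Of the 50-base words in their annotated transcripts, other genes of GENCODE M21 share 53.9% for Pgk1, 36.2% for Pgam1, 26.0% for Eno1, 25.8% for Pkm and 25.1% for Gapdh, and how reads with several matches were counted is not given in the sources.

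Eno2 encodes gamma-enolase, the form typical of neurons and a known HIF target (ENSMUSG00000004267; GRCm38 chromosome 6, 124760053 to 124769673, minus strand). It had 3.36, 4.52 and 4.79 CPM in Zac1 replicates 4, 5 and 6, against 1.87, 2.15 and 2.03 CPM in EGFP replicates 1, 2 and 3. All 3 Zac1 libraries lay above all 3 EGFP libraries, with Zac1 replicate 4 the lowest of its group. The fold change was 2.10 (95% interval 1.55 to 2.86; log2 fold change 1.07, SE 0.21, edgeR adjusted p = 0.00815). The call was lost without Zac1 replicate 5 (adjusted p = 0.0504) or without Zac1 replicate 6 (0.0595), in a range of 3.82e-05 to 0.0595 over the 16 alternatives. Per length, Eno2 was a minor enolase, at 0.694 ± 0.0983% in Zac1 and 0.356 ± 0.0275% in EGFP of the summed RPKM of Eno1, Eno2 and Eno3 (SD, n = 3). Eno3, the muscle form and not among the 40, also rose. It had 29.2, 31.4 and 30.1 CPM in Zac1 replicates 4, 5 and 6, against 26.0, 21.7 and 19.3 CPM in EGFP replicates 1, 2 and 3 (log2 fold change 0.44, SE 0.10, edgeR adjusted p = 0.0223; lost without EGFP replicate 2 or 3 or Zac1 replicate 5 or 6, range over the 16 alternatives 9.25e-08 to 0.146). Its share of the enolases was 13.5 ± 0.304% in Zac1 and 10.6 ± 1.38% in EGFP, and that of Eno1 was 85.8 ± 0.236% in Zac1 and 89.0 ± 1.35% in EGFP. For all 3 shares the Zac1 libraries lay on 1 side of the EGFP libraries; these shares are descriptions with no test.

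**Figure D2:**
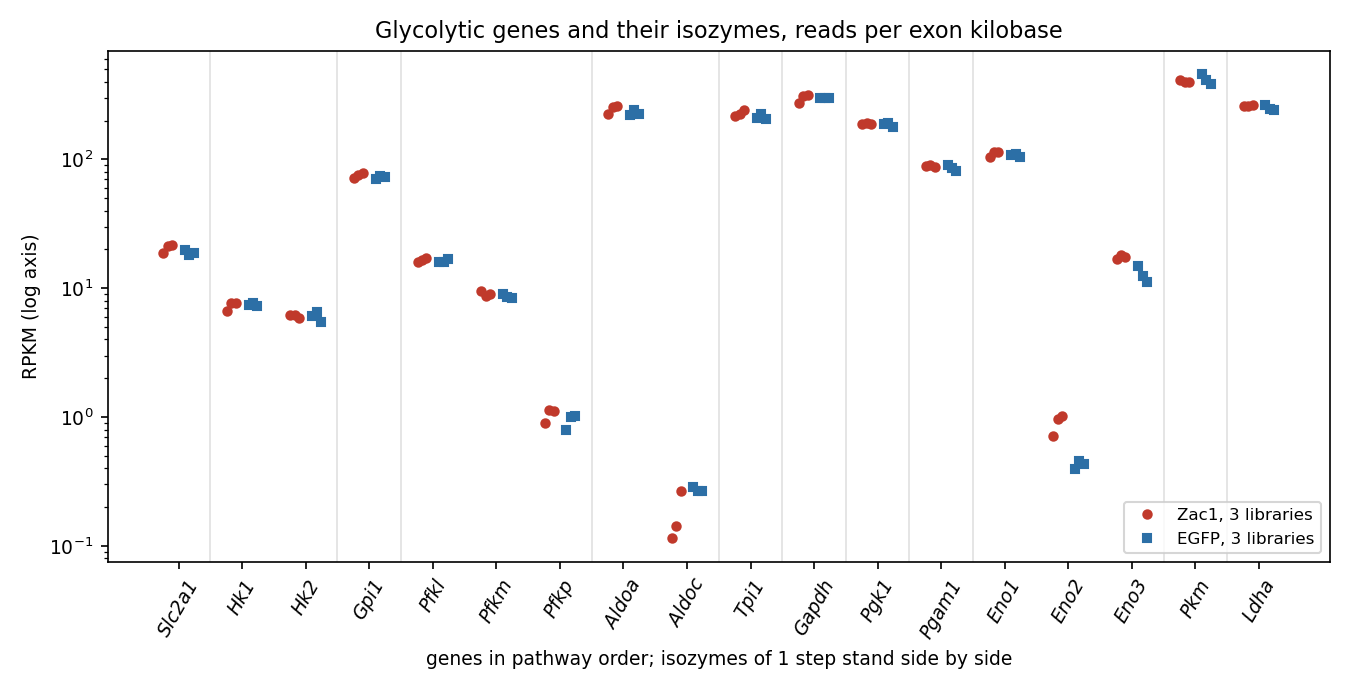
Level of the glucose transporter Slc2a1 and of glycolytic enzymes in pathway order, in RPKM on a log axis, with 1 point per library (Zac1 circles left of EGFP squares). Points of both groups lie at similar heights for most enzymes. Eno2 and Eno3 sit higher in Zac1, and Pfkp, Aldoc and Eno2 have the lowest RPKM.

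None of the genes that move glucose and lactate or set the pace of glycolysis passed the test. Of the 4 tested, 3 had a log2 fold change above 0. For 1 of the 4 (Pfkfb3) the unadjusted edgeR p was under 0.05, as it was for 1921 of all 12130 tested genes. DESeq2 called 0 of the 4, against 2.75% of all genes called higher and 0.775% called lower. Slc2a1, the glucose transporter GLUT1, had 66.3, 74.1 and 75.2 CPM in Zac1 replicates 4, 5 and 6, against 69.3, 63.9 and 65.3 CPM in EGFP replicates 1, 2 and 3; the groups overlapped (log2 fold change 0.12, SE 0.07, edgeR adjusted p = 0.407). Pfkfb3, which makes the fructose bisphosphate that activates phosphofructokinase, had 57.0, 49.2 and 54.1 CPM in Zac1 replicates 4, 5 and 6, against 43.6, 50.8 and 48.1 CPM in EGFP replicates 1, 2 and 3. Zac1 replicate 5 lay within the EGFP values (log2 fold change 0.17, SE 0.08, edgeR adjusted p = 0.295). Its relative Pfkfb4 was scarce, at 2.94 ± 0.427 CPM in Zac1 and 2.44 ± 0.759 CPM in EGFP (log2 fold change 0.27, 95% interval -0.24 to 0.79). Pdk1, the kinase that holds pyruvate back from oxidation in mitochondria, was at -0.19 (-0.40 to 0.03). Slc16a3, the lactate exporter MCT4, had 4, 1 and 3 reads in the Zac1 libraries and 1, 0 and 1 reads in the EGFP libraries. Scaled to library size, the summed counts of 8 and 2 gave a ratio of 3.47 of Zac1 to EGFP with an exact 95% interval of 0.693 to 33.6 that covers counting error only.

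Among the 7 genes of oxygen sensing, Epas1 and Egln3 rose and 0 fell, against 3.12% called higher over all genes. Epas1 encodes the alpha subunit HIF2A (ENSMUSG00000024140; GRCm38 chromosome 17, 86753700 to 86833410, plus strand). It had 3.67, 4.41 and 4.52 CPM in Zac1 replicates 4, 5 and 6, against 2.13, 1.88 and 2.23 CPM in EGFP replicates 1, 2 and 3. The Zac1 libraries lay above the EGFP libraries without overlap (log2 fold change 1.01, SE 0.19, edgeR adjusted p = 0.00731). The fold change was 2.02 (95% interval 1.52 to 2.69), and the gene passed under all 16 alternatives, with adjusted p of 1.18e-04 to 0.0489. Hif1a, the alpha subunit found in most cells, was far more abundant, at 17.8 ± 1.55 RPKM in Zac1 and 17.4 ± 1.62 RPKM in EGFP, against 0.751 RPKM in Zac1 and 0.372 RPKM in EGFP for Epas1. The log2 fold change of Hif1a was 0.03 (95% interval -0.13 to 0.19). Of the summed RPKM of Hif1a, Epas1 and Hif3a, another alpha subunit, Epas1 made up 2.62 ± 0.372% in Zac1 and 1.34 ± 0.0600% in EGFP (SD, n = 3). Arnt, their shared partner, was at -0.11 (adjusted p = 0.455), with all Zac1 libraries below all EGFP libraries.

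Egln3 is a prolyl hydroxylase that HIFs induce in many cells (ENSMUSG00000035105; GRCm38 chromosome 12, 54178981 to 54203860, minus strand). It had 25.2, 26.2 and 25.6 CPM in Zac1 replicates 4, 5 and 6, against 20.6, 20.6 and 19.9 CPM in EGFP replicates 1, 2 and 3. The groups were tight and did not overlap (log2 fold change 0.33, SE 0.08, edgeR adjusted p = 0.0274), a fold change of 1.26. The call was lost with DESeq2 (adjusted p = 0.0548) and without EGFP replicate 2 (0.0683), EGFP replicate 3 (0.139), Zac1 replicate 5 (0.166) or Zac1 replicate 6 (0.102), in a range of 0.00464 to 0.166 over the 16 alternatives. Egln1, the main oxygen sensor and a HIF target itself, was at 0.02 (95% interval -0.10 to 0.14), and Egln2 at 0.08 (-0.07 to 0.23). Egln3 made up 17.96 ± 0.418% in Zac1 and 15.3 ± 0.455% in EGFP of the summed RPKM of the 3 hydroxylases. Vhl, which marks HIF alpha subunits for degradation, was at 0.05 (-0.11 to 0.22).

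Most of the other HIF targets did not pass the test. Of 12 tested, Mxi1 and Car9 rose and 0 fell, against 3.12% called higher over all genes; 7 fold changes were above 0 and 5 below it. Mxi1, a repressor that antagonises MYC (ENSMUSG00000025025; GRCm38 chromosome 19, 53310518 to 53375810, plus strand), had 29.5, 28.7 and 32.1 CPM in Zac1 replicates 4, 5 and 6, against 22.2, 21.6 and 20.5 CPM in EGFP replicates 1, 2 and 3. Every Zac1 library exceeded every EGFP library (log2 fold change 0.49, SE 0.08, edgeR adjusted p = 0.00292), a fold change of 1.40. It had the smallest p of the 39 members and passed under all 16 alternatives (adjusted p 1.59e-06 to 0.0319). Gm10197, annotated as protein-coding on the opposite strand, overlaps 194 exonic bases of Mxi1 and had at most 1 read in any library.

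Car9 encodes carbonic anhydrase IX, a cell-surface enzyme that disposes of acid and a classical marker of hypoxia (ENSMUSG00000028463; GRCm38 chromosome 4, 43506966 to 43513729, plus strand). It had 21, 28 and 33 reads in the Zac1 libraries and 6, 9 and 5 reads in the EGFP libraries, that is 1.31, 1.64 and 1.80 CPM in Zac1 replicates 4, 5 and 6, against 0.400, 0.604 and 0.338 CPM in EGFP replicates 1, 2 and 3. The groups did not overlap, and the fold change was 3.51 (95% interval 2.09 to 5.88; log2 fold change 1.81, SE 0.35, edgeR adjusted p = 0.00790). Its mean count in EGFP, 6.67, was below the minimum of 10, so it was tested only because of its Zac1 libraries; this held for no other member. The call was lost without EGFP replicate 3 (adjusted p = 0.0553; range over 15 alternatives 2.65e-04 to 0.0553). The antisense gene Gm12454 overlaps 214 exonic bases of Car9 and had 20, 25 and 14 reads in the Zac1 libraries and 18, 15 and 14 in the EGFP libraries; the strand setting of the counting is unknown, and the reads of this pair may be mixed. Car12, another membrane carbonic anhydrase, had 3.80, 4.05 and 4.35 CPM in Zac1 replicates 4, 5 and 6, against 2.53, 2.62 and 2.63 CPM in EGFP replicates 1, 2 and 3. Its groups did not overlap, but it missed the threshold (log2 fold change 0.65, SE 0.18, edgeR adjusted p = 0.0610); its adjusted p was 0.0282 to 0.235 over the alternatives, and it passed with voom weights, without a count filter, without Zac1 replicate 4 and without both EGFP 1 and Zac1 4.

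**Figure D3:**
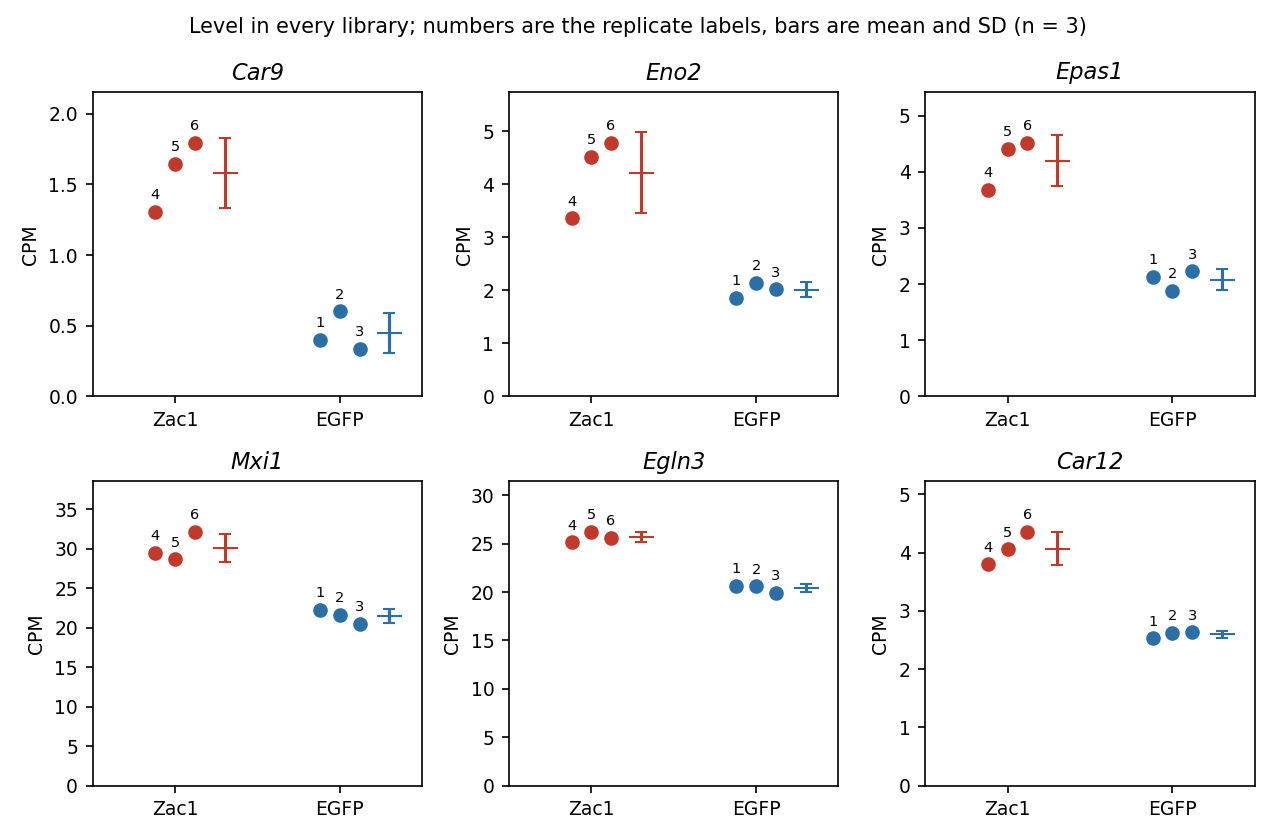
CPM in every library for the 5 members past the test and for Car12, which missed it, with Zac1 left of EGFP; numbers are replicate labels, and the bars beside the points are mean and SD (n = 3). No panel has overlapping groups, and Car9, Eno2, Epas1 and Car12 stay below 5 CPM while Mxi1 and Egln3 lie between 19.9 and 32.1 CPM.

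None of the other targets passed. Bnip3 and Bnip3l, receptors that tag mitochondria for removal, had log2 fold changes of -0.18 (95% interval -0.35 to -0.005) and -0.09 (-0.23 to 0.04). Bnip3 was lower in every Zac1 library than in any EGFP library, at 22.4 ± 0.264 CPM in Zac1 and 25.3 ± 1.59 CPM in EGFP (adjusted p = 0.301); other genes share 47.2% of its 50-base words. Kdm3a, a histone demethylase, and P4hb, a subunit of collagen prolyl hydroxylase and a protein disulfide isomerase, were also lower without overlap, by small steps of -0.09 and -0.06 (adjusted p = 0.427 and 0.492). Ndrg1, a stress-induced gene, was at -0.10 (-0.25 to 0.06) and Higd1a, a mitochondrial protein, at 0.02 (-0.17 to 0.22). Other genes share 24.4% of the 50-base words of Higd1a and 20.8% of those of Bnip3l. Overlapping genes count in these shares, such as Gm45507 (504 exonic bases of Bnip3) and Gm47112 (683 of Higd1a), both on the opposite strand. Bhlhe40, a transcriptional repressor, was at 0.17 (adjusted p = 0.281). Adm, the vasodilator adrenomedullin, had 1.93, 2.17 and 3.48 CPM in Zac1 replicates 4, 5 and 6, against 2.13, 1.75 and 1.69 CPM in EGFP replicates 1, 2 and 3. Only Zac1 replicate 6 stood clearly above the EGFP values (log2 fold change 0.46, adjusted p = 0.438). Ankrd37 was at 0.12 with a wide interval (-0.56 to 0.80), and had 30, 23 and 18 reads in the Zac1 libraries and 14, 23 and 20 reads in the EGFP libraries.

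Further genes of both pathways were read from the same fit, in which 3.78% of all tested genes passed. Of 42 further genes of glycolysis, gluconeogenesis and pyruvate use, 29 could be tested; 1 rose (Eno3), 1 fell and 27 did not pass (median log2 fold change 0.02). Of 36 further hypoxia and HIF genes found, 35 were tested; 2 rose, Ak4 among them, 0 fell and 33 did not pass (median log2 fold change 0.01). Ak4, a mitochondrial adenylate kinase, had 26, 32 and 27 reads in the Zac1 libraries and 15, 2 and 3 reads in the EGFP libraries. Its mean EGFP count, 6.67, was below the minimum of 10, so Ak4 was tested only because of its Zac1 libraries. EGFP replicate 1 held most of the EGFP reads (log2 fold change 1.87, SE 0.47, edgeR adjusted p = 0.0411; lost without EGFP replicate 2 or 3 or Zac1 replicate 5 or 6, range 1.54e-06 to 0.229 over 15 alternatives). Vegfa, the angiogenic factor and a standard HIF target, had a log2 fold change of 0.15 (95% interval -0.08 to 0.37); Vegfa was chosen after its values were seen.

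Some of these calls were lost when 1 library was left out, and why was not tested. Over the alternatives, log2 fold changes ran from 0.971 to 1.21 for Eno2, 0.310 to 0.358 for Egln3 and 1.64 to 2.08 for Car9. Mxi1 and Epas1 passed in each fit that left out 1 library, Car9 in 5 of 6, Eno2 in 4 of 6 and Egln3 in 2 of 6. Without Zac1 replicate 4, 8 members were higher, Aldoa, Bhlhe40 and Car12 besides the 5, and 4.82% of all tested genes were then called higher. Without EGFP 1 and Zac1 4, 9 members were higher, Aldoa, Car12, Slc2a1 and Tpi1 besides the 5, against 7% of all tested genes. That fit pooled the variance almost wholly over genes, and the fit without a count filter, in which Car12 also passed, did so wholly. Left out in turn, EGFP replicate 3, Zac1 replicate 5 and Zac1 replicate 6 each reduced the members called higher to 3, against 1.76%, 1.55% and 1.63% of all genes in those fits. Without EGFP replicate 2, 4 members were higher (2.51% of all genes), and without EGFP replicate 1 the same 5 (2.75%). With offsets for the GC content of transcripts the same 5 members were called, against 3% of all genes.

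**Figure D4:**
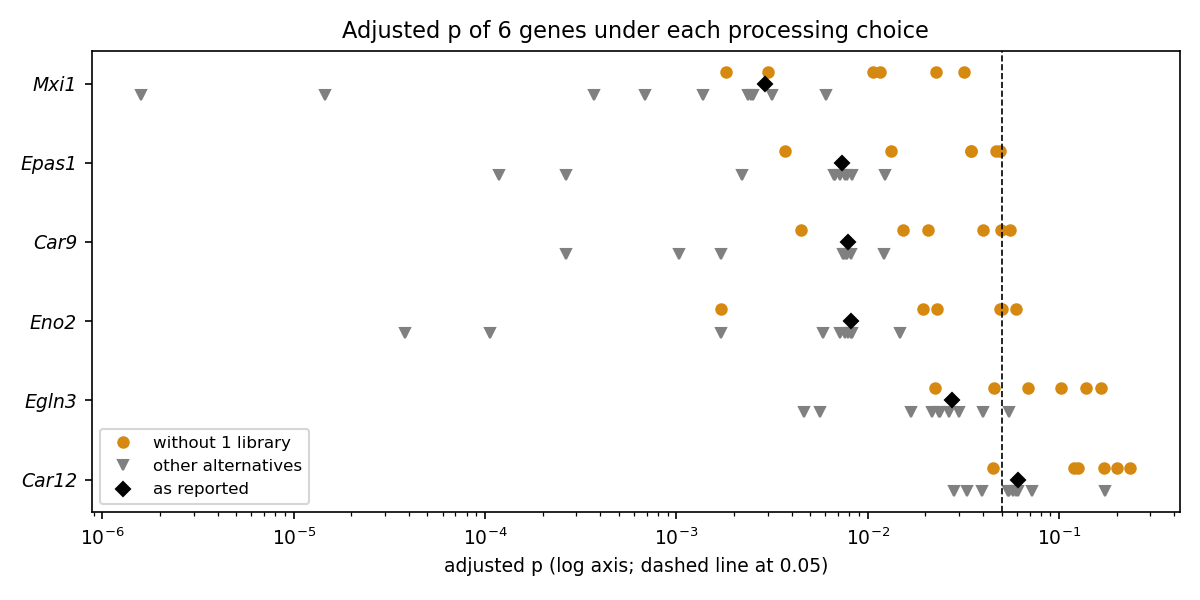
Adjusted p (log axis, dashed line at 0.05) of the 5 members past the test and of Car12 as reported (black diamonds), with 1 library left out (orange circles) and under the other alternatives (grey triangles). Mxi1 and Epas1 stay left of the line throughout, while Eno2 and Car9 cross it when particular libraries are left out and Egln3 and Car12 lie on both sides.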

How the data were processed

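Polyadenylated RNA of AML12 cells was sequenced from a directional library kit, per the labels' protocols, in 3 Zac1 and 3 EGFP libraries. The deposited table holds whole-number counts per Ensembl gene ID; the submitters' processing notes name FastQC, STAR, HTSeq and DESeq2 without versions, and the build, annotation and strand setting were not stated. The deposited counts are called normalized, but library totals run from 14801240 to 18302538, median-of-ratios factors from 0.928 to 1.16, and no whole number from 1 to 40 is absent in any library, so they were treated as raw counts.

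Symbols, positions and exon lengths came from GENCODE M21 (49326 of 49585 IDs matched). Genes whose counts averaged 10 or more were tested with edgeR 4.0.16 (R 4.3.3): TMM scaling, quasi-likelihood test, Zac1 minus EGFP, two-sided, Benjamini-Hochberg over all 12130 tested genes, threshold 0.05, prior count 0.125 for log2 fold changes. The SE is the size of the log2 fold change divided by the square root of F, and 95% intervals use 14.0 degrees of freedom; they are not adjusted for the number of genes. CPM and RPKM (by the joined length of all annotated exons) were computed from the counts with TMM factors. The fit was checked on simulated data with known changes. All 40 members are named. Those past the test, and in each role the 2 with the smallest p, are given in every library, as are some others. Of the further pathway genes, those past the test are named, except genes not reported here. Members and lists were chosen with earlier results of these data known. The 16 alternatives were median-of-ratios or upper-quartile scaling, total count without Plagl1, a minimum mean of 50 reads or none, DESeq2 1.42.0, limma 3.58.1 voom with quality weights, robust variance, offsets for transcript GC, each library left out, and EGFP 1 with Zac1 4 left out. No comparison other than Zac1 against EGFP was possible.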

Additional observations from a re-analysis of the deposited data

How the results depend on the processing

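Mxi1 and Epas1 passed in all 16 alternatives. Over all genes, 459 passed as reported, 241 with a minimum of 50, 979 with no count filter, 1297 with voom weights, 1461 without EGFP 1 and Zac1 4, and 206 to 963 with 1 library left out. Glycolytic enzymes past the test numbered 1 as reported, 3 without EGFP 1 and Zac1 4, and 0 to 2 with 1 library left out; genes of transport and control numbered 0 as reported and 1 without EGFP 1 and Zac1 4. Genes of oxygen sensing numbered 2 as reported, 1 with DESeq2, and 1 to 2 with 1 library left out. Other HIF targets numbered 2 as reported, 1 with a minimum of 50 (Car9 was then not tested), 4 with voom weights, and 1 to 4 with 1 library left out. Further glycolysis genes numbered 2 as reported, 4 with no filter, 4 with voom weights, 4 without EGFP 1 and Zac1 4, and 1 to 3 with 1 library left out. Further hypoxia genes numbered 2 as reported, 1 with a minimum of 50, 5 with voom weights, 6 without EGFP 1 and Zac1 4, and 0 to 4 with 1 library left out. The share of higher calls among all calls was 82.4% as reported, 61.4% with voom weights, 60.6% without Zac1 replicate 4 and 58.4% without EGFP 1 and Zac1 4; the cause was not tested.

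Across the 43 genes followed and the alternatives that could test them, 626 fold changes kept their direction and side of the threshold, 20 lost a call and 10 gained one. Another 26 changed sign, all of members that did not pass as reported. With GC offsets the log2 fold change was -8.73e-04 for Hk2, -0.0416 for Pfkl, -0.0283 for Gapdh, -0.0288 for Eno1, -0.0382 for Egln1 and -0.0404 for Egln2. That of Gapdh was -0.00331 with median-of-ratios scaling and -0.00330 with DESeq2, and that of Hk1 was 0.0306 with voom weights. Without EGFP 1 and Zac1 4 it was 0.0447 for Hk1, 0.00787 for Pkm and -0.315 for Ankrd37. With 1 library left out, the range was -0.0602 to 0.0415 for Hk1, -0.0426 to 0.0813 for Hk2, -0.0349 to 0.0591 for Gapdh, -0.0196 to 0.0421 for Pgk1, -0.115 to 0.0249 for Pkm, -0.0408 to 0.0983 for Hif1a, -0.136 to 0.330 for Ankrd37 and -0.0714 to 0.0955 for Higd1a. No paired analysis was run, because the labels state no pairing of Zac1 with EGFP libraries. The Zac1 libraries are numbered 4 to 6 and the EGFP libraries 1 to 3, which does not show whether cultures were paired. A block built from the measured values, such as Zac1 4 with EGFP 1, was not fitted. Depth limits Slc16a3, Car9, Aldoc, Adm, Ak4 and Ankrd37 most, and with 3 libraries a group small differences may have been missed.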
